A study of Homo sapiens with 18 samples.

Results

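The response of PC3 cells to depletion of Elongin B was measured by RNA sequencing as the difference between 3 libraries from cells with a hairpin RNA against Elongin B (EloB KD) and 3 libraries from cells with a control hairpin (Control KD). The members are all genes with a mean normalised read count of at least 10 over the 9 libraries of the knockdown experiment, which left 13764 of 20365 genes. The 6 libraries compared are part of 18 in all. PC3 is an established human prostate cancer cell line. The hairpins were delivered by lentivirus and the cells grew in medium with 10% serum. The same experiment holds 3 libraries with a hairpin against Elongin C (EloC KD), and a separate experiment holds cells given peptides for 24 h in 2.5% serum. The labels number the replicates 1 to 3 and do not say that they are separate cultures, so each p-value rests on the spread among the libraries, which may be technical. In RNA from whole cultures, fewer cells of a kind and less RNA per cell cannot be told apart.

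Elongin B is a small ubiquitin-like protein that forms a stable dimer with Elongin C. The dimer joins Elongin A in a complex that helps RNA polymerase II through pauses, and it links the scaffolds CUL2 and CUL5 to substrate receptors such as VHL and the SOCS proteins, which carry a BC-box. Through these receptors the dimer takes part in the degradation of the hypoxia factor HIF1A and of many signalling proteins.

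Between 40.3 M and 57.2 M reads were counted per library, and 13429 to 14026 genes had 10 reads or more. Mitochondrial genes took 2.6% to 4.75% of the reads. On principal components of the 9 libraries, the first (51.2% of the variance) set EloC KD apart, the second (23.3%) separated all 3 EloB KD from all 3 Control KD libraries, and on the third (10.2%) replicate 1 was highest and replicate 2 lowest in each group. Epithelial keratin genes were well expressed, with 2605 to 4182 normalised counts of KRT8. The prostate marker KLK3 and the neuroendocrine marker CHGA were at 0 in all 6 libraries.

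The hairpin reduced its target. ELOB (chr16:2771414-2777280, GRCh38) had 596, 478 and 535 normalised counts in EloB KD 1 to 3, against 2626, 4118 and 4950.3 in Control KD 1 to 3. The groups lay far apart, although the level in Control KD 1 was lower than in the other control libraries. The log2 fold change was -2.82 ± 0.20 (standard error of the limma fit, 7.04-fold lower, adjusted p = 3.55e-05). The transcript of its partner ELOC did not pass the test at 0.01 ± 0.10 (adjusted p = 0.971), and ELOA, the elongation factor subunit, stood at -0.22 ± 0.10 (adjusted p = 0.149). Of the 16 members of the Elongin complex and its CUL2 and CUL5 ligase core that were tested, ELOB and ARIH1, a ligase that works with neddylated cullins, fell and no member rose. ARIH1 changed by -0.41 ± 0.09 (adjusted p = 0.0118), and by -0.38 (adjusted p = 0.0501) without Control KD 2.

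At an adjusted p under 0.05, 2822 of the 13764 genes were called, which is 20.5% of those tested. Of these, 1285 were higher (9.34%) and 1537 lower (11.2%) in EloB KD. Most changes were small. The median fold was 1.65 among genes called higher and 1.51 among genes called lower, 399 genes were at least 2-fold higher and 281 at least 2-fold lower, and 11 and 3 passed 8-fold. The values of the 2 groups did not overlap for 2803 of the called genes, and 2821 changed in the same direction in all 3 replicate pairs. Groups that did not overlap made up 38.4% of all genes tested, and passing the test itself favours genes whose groups are apart. Libraries with the same replicate number deviated together, and a fit with the replicate number as a block called 4996 genes (36.3%), all 2822 among them. Leaving out any 1 of the 6 libraries gave 1915 to 2373 calls, and 1457 of the 2822 genes (51.6%) were called in all 6 such fits. An adjusted p under 0.05 stands beside 3420 genes in the authors' deposited table, and 2791 of the 2822 genes are among them.

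**Figure D1:**
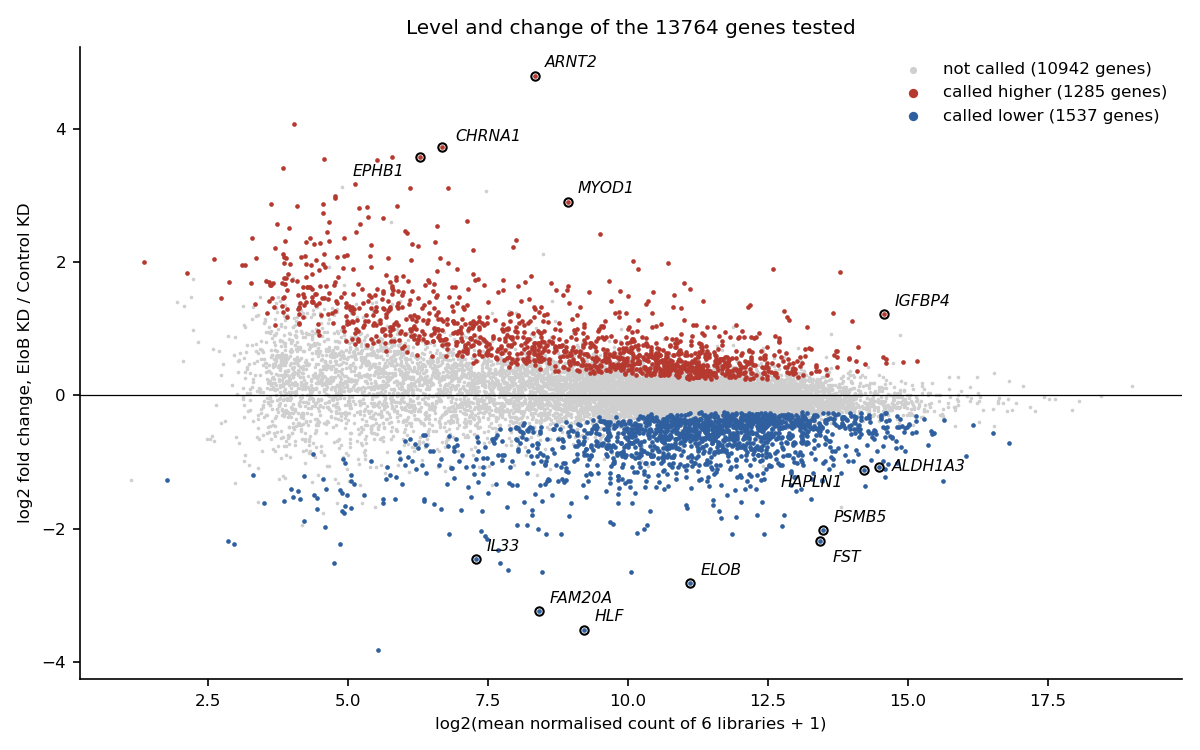
Mean level over the 6 libraries on the x axis (log2 of the normalised count plus 1) against the log2 fold change of EloB KD over Control KD on the y axis, 1 point per gene tested, with called genes in colour and 13 genes named. ARNT2 is the highest point at 4.80, HLF lies at -3.52, and the points at high levels lie mostly within 2-fold.

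The changes named by size are those of genes with a mean of at least 50 counts over the 6 libraries, and many of the largest increases started from low control levels. ARNT2 (chr15:80404382-80597933) encodes a partner of HIF and other PAS-domain transcription factors. It had 17.9, 26.3 and 19.5 counts in Control KD and 731, 661 and 473 in EloB KD, a difference of 4.80 ± 0.28 on the log2 scale (27.9-fold, adjusted p = 1.27e-05). No EloB KD value came near a control value. EPHB1, a receptor tyrosine kinase for membrane-bound ephrins, had 182, 148 and 98.5 counts against 9.42, 13.2 and 9.74 (3.58 ± 0.32, 11.9-fold, adjusted p = 0.000113).

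MYOD1 and CHRNA1, known from skeletal muscle, were among the increases. MYOD1 (chr11:17719571-17722136), the master transcription factor of muscle determination, had 876, 480.2 and 1229 counts in EloB KD against 113, 95.7 and 111 in Control KD (2.91 ± 0.42, 7.49-fold, adjusted p = 0.00118). CHRNA1, the alpha subunit of the muscle acetylcholine receptor, had 163, 92.2 and 321 counts against 14.1, 7.9 and 14.6 (3.73 ± 0.66, 13.3-fold, adjusted p = 0.00318). In both genes EloB KD 3 was highest and EloB KD 2 lowest, and all 3 lay above every control. Of 19 genes tested in the skeletal muscle list, 4 were called (21.1%, near the 20.5% of all genes). MYOD1 and CHRNA1 rose, and MEF2A and CKB, a creatine kinase other than the muscle marker CKM, fell. MEF2A was not called without EloB KD 3, Control KD 1 or Control KD 2 (-0.35, adjusted p = 0.0646, without Control KD 1). The muscle markers MYOG and CKM had at most 1.88 counts in any of the 6 libraries. The promoter of CHRNA1 in the RefSeq table (GRCh38.p14, minus strand, chr2:174764502-174764587) holds the E-box letters CAGCTG, of the kind that MYOD1 binds, 75 bases before the gene start. They are in capitals.

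CHRNA1: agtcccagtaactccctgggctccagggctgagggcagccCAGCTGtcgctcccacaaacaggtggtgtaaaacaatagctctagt

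The same letters were in 17% of the 11162 promoters of tested genes that the table holds and in 28.6% of the 14 muscle promoters among them.

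The other genes among the 15 largest increases were SLC16A12, a creatine transporter, at 3.12 ± 0.41, ZMAT1 at 3.12 ± 0.51, PADI3, a peptidylarginine deiminase, at 2.85 ± 0.40, TRAC, TEX48, TSPAN19, GPM6A, ADAMTS6, ANKRD22, GRIN2A and IGF2BP1. TRAC, the constant region of the T-cell receptor alpha chain, had 168, 303 and 241 counts against 22.6, 53.6 and 40.2 (2.62 ± 0.37, adjusted p = 0.0011). SH2D2A, an adaptor best known from T cells, rose from 582, 709.5 and 729 counts to 2725, 2572 and 2716 (1.99 ± 0.15, 3.98-fold, adjusted p = 4.43e-05). The T-cell marker CD3E was at 0.96 counts or less in every one of the 6 libraries. PTPRC, the pan-leukocyte marker, was between 0 and 13.4 counts.

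GRIN2A and IGF2BP1 rose in all 3 replicate pairs but lost the call when some single libraries were left out. GRIN2A, an NMDA receptor subunit, was at 52.2, 197 and 52.1 counts against 1.88, 18.4 and 4.87 (3.58 ± 0.89, adjusted p = 0.0176). Without EloB KD 2 it gave 2.94 (adjusted p = 0.0622), and without Control KD 1 2.95 (adjusted p = 0.06). Its 3 pairs gave 4.20, 3.35 and 3.18, with an adjusted p of 6.28e-05 in the fit with the replicate block. IGF2BP1, an oncofetal RNA-binding protein, followed the replicate number in both groups, with 2102, 526 and 1025 counts against 369, 100.1 and 194. Its change of 2.43 ± 0.61 (adjusted p = 0.019) gave 1.92 (adjusted p = 0.0721) without EloB KD 1, 2.44 (adjusted p = 0.0523) without EloB KD 3, and 1.96 (adjusted p = 0.0676) without Control KD 2. The pairs gave 2.51, 2.38 and 2.40, with an adjusted p of 5.20e-07 with the replicate block.

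**Figure D2:**
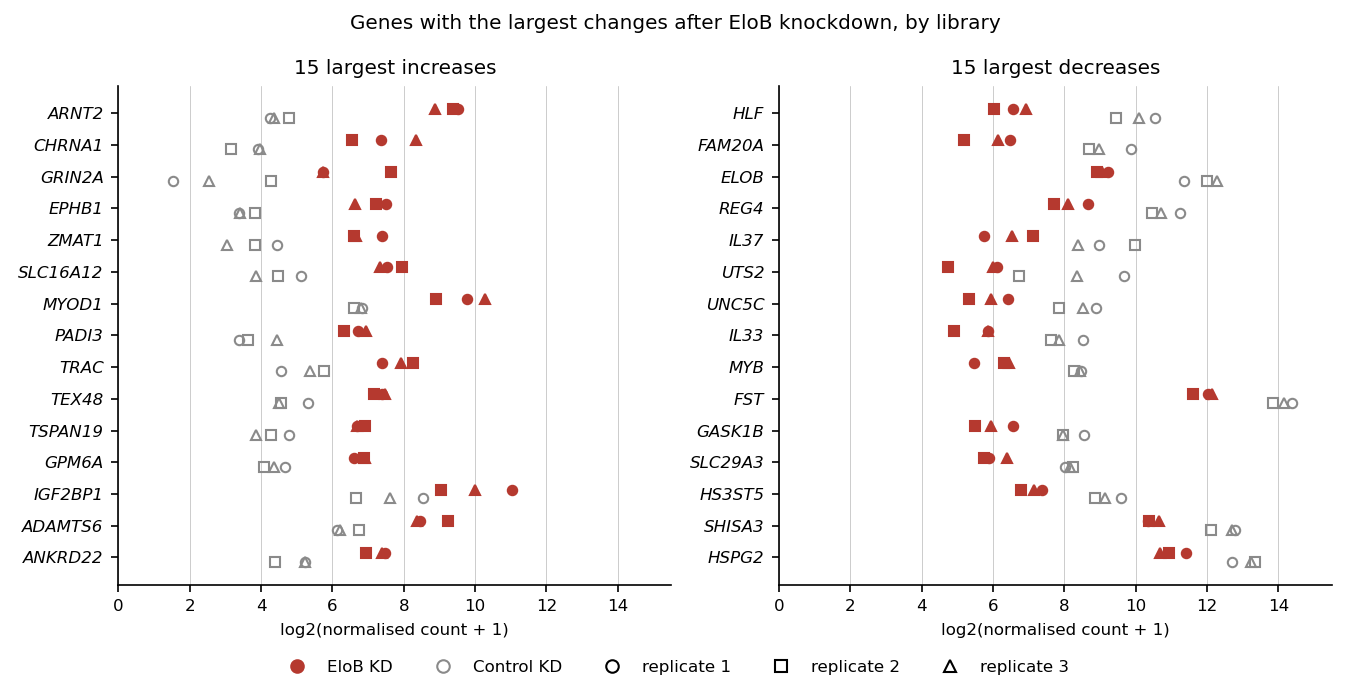
Each row is 1 of the 15 genes with the largest increase (left) or decrease (right), and each point is 1 library on a log2 scale of the normalised count plus 1, with EloB KD filled and Control KD open. The groups do not overlap in any row, a condition of the choice, and in rows such as IGF2BP1 and UTS2 the replicates of both groups are spread widely.

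The largest decreases took in transcription factors, secreted proteins and cytokines. HLF (chr17:55264960-55325187), a PAR bZIP transcription factor whose activity follows the clock in many tissues, fell from 1495, 699 and 1088 counts to 94.1, 64.3 and 120.3 (-3.52 ± 0.36, 11.5-fold lower, adjusted p = 0.000199). FAM20A, a pseudokinase that activates the secretory kinase FAM20C, fell from 936, 411 and 499 to 87.6, 35.5 and 69.1 (-3.24 ± 0.48, 9.48-fold lower, adjusted p = 0.00136). MYB, a transcription factor of progenitor cells, fell from 355, 310 and 347 to 42.9, 77.8 and 87.1 (-2.33 ± 0.24, adjusted p = 0.000207). In all 3 genes the highest EloB KD library was below the lowest control.

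The secreted lectin REG4 (-2.66 ± 0.29), the interleukin-1 family members IL37 (-2.65 ± 0.41) and IL33 (-2.46 ± 0.36), the netrin receptor UNC5C (-2.52 ± 0.38), GASK1B, SLC29A3, HS3ST5, HSPG2 and SHISA3 were also among the 15 lowest. UTS2, the vasoactive peptide urotensin 2, had 68, 25.9 and 63.4 counts against 809, 105 and 323 (-2.62 ± 0.68, adjusted p = 0.0211). It lost the call without EloB KD 2 (-2.19, adjusted p = 0.0707), Control KD 1 (-1.91, adjusted p = 0.0625) or Control KD 3 (-2.57, adjusted p = 0.0515).

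Larger pools of RNA moved by about 2-fold. ARHGAP29, a GTPase-activating protein, was the most abundant gene changed at least 2-fold, with 29842, 27699 and 29403 counts against 87815, 63835 and 63586 (-1.29 ± 0.13, adjusted p = 0.00018). The glutamine transporter SLC38A1 (-1.01 ± 0.10), the protein kinase A subunit PRKAR1A (-1.11 ± 0.11), the heparan sulfate editing enzyme SULF2 (-1.23 ± 0.13), the retinaldehyde dehydrogenase ALDH1A3 (-1.07 ± 0.11), the ribosome-binding membrane protein LRRC59 (-1.36 ± 0.12) and the matrix linker HAPLN1 (-1.12 ± 0.25) fell as well. COX7C, a subunit of cytochrome c oxidase, rose from 10478, 9211 and 11275 to 21405, 22306 and 23302 (1.12 ± 0.09, adjusted p = 7.34e-05). IGFBP4, which binds insulin-like growth factors, rose from 11674, 17677 and 14763 to 26206, 39979 and 36787 (1.22 ± 0.18, adjusted p = 0.00124). The integrin ITGB4 fell by 1.03 on the log2 scale (adjusted p = 0.0206), but gave -1.0 (adjusted p = 0.0562) without EloB KD 2 and -0.87 (adjusted p = 0.0759) without EloB KD 3.

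Some of the most sharply reduced transcripts were lower than in both Control KD and EloC KD. The comparison of EloB KD with EloC KD, which shares the EloB KD libraries with the main one, called 6343 genes (46.1%). PSMB5 (chr14:23025851-23035220), the chymotrypsin-like catalytic subunit of the proteasome, had 3901, 4372 and 5520.4 counts in EloB KD, 18909, 18428 and 17871 in Control KD and 16937, 18014 and 17872 in EloC KD. It was 4.04-fold lower than in Control KD (-2.02 ± 0.11, adjusted p = 1.27e-05) and differed from EloC KD by -1.95 ± 0.11 (adjusted p = 2.64e-06). The control and EloC KD libraries lay within a narrow band and every EloB KD library lay far below it. The hairpin sequences, and whether each gene had more than 1 hairpin, were not analysed here, so a direct action of the hairpin on PSMB5, RNF185 or TTPAL, apart from the loss of Elongin B, was not tested.

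The ubiquitin ligase RNF185, which acts at the endoplasmic reticulum, had 319, 371 and 342 counts in EloB KD, 1269.9, 1322 and 1264 in Control KD and 1667, 2196 and 1695 in EloC KD. Its difference was -1.90 ± 0.12 from Control KD (adjusted p = 2.31e-05) and -2.42 ± 0.12 from EloC KD (adjusted p = 2.4e-06). TTPAL, a lipid-transfer protein relative (-1.84 ± 0.12), the flippase ATP8B1 (-1.93 ± 0.16), the peptide precursor NTS (-1.95 ± 0.27) and the sodium channel SCN3A (-1.80 ± 0.15) were likewise below both other groups. SH2D2A and 12 of the 15 genes with the largest increases were above both, and GRIN2A, IGF2BP1 and ADAMTS6 did not pass the test against EloC KD (2.02, 1.01 and 0.34, adjusted p = 0.0856, 0.202 and 0.327). MYOD1 exceeded EloC KD by 3.94 ± 0.42 (adjusted p = 5.2e-05). SERPINB2, an inhibitor of urokinase, was below both groups in the full fit, but its change from Control KD of -1.74 ± 0.52 (adjusted p = 0.039) was not called without EloB KD 1 (-1.24, adjusted p = 0.131), without EloB KD 3 (-1.91, adjusted p = 0.0649), without Control KD 2 (-1.46, adjusted p = 0.123) or without Control KD 3 (-1.78, adjusted p = 0.0734). HLF and FAM20A did not differ detectably between the knockdowns, at -0.68 ± 0.36 (adjusted p = 0.15) and 0.03 ± 0.48 (adjusted p = 0.964). Among the 15 largest decreases, REG4 (-0.14, adjusted p = 0.724), HSPG2 (0.02, adjusted p = 0.956), UNC5C, UTS2 and SHISA3 did not pass the test against EloC KD either. ELOB, IL37, IL33, MYB, FST, GASK1B, SLC29A3 and HS3ST5 were below EloC KD.

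Genes of sterol synthesis were among those that fell. Cells sense membrane cholesterol through SREBF2, which is released from the endoplasmic reticulum when sterols are low and raises the synthesis enzymes and its own inhibitors. Of 31 genes of sterol synthesis and uptake tested, 10 fell and 1, MVK, rose (35.5% called, against 20.5% of all genes), and the list's median log2 change was -0.24 beside 0.00 for all genes. The median was -0.27, -0.28 and -0.20 in the 3 replicate pairs. Among the sensors and regulators, INSIG1, the retention factor of the SREBF proteins, had 1904, 1237 and 1351 against 4693, 3365 and 2693 (-1.25 ± 0.21, adjusted p = 0.00259), and SREBF2 itself 7577, 6585 and 6145 against 9437, 9806 and 8692 (-0.46 ± 0.09, adjusted p = 0.00687). Neither gene overlapped with the controls.

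Of the 20 synthesis enzymes 5 fell and 1 rose, and of the 5 sensing and regulating genes 3 fell. FDFT1, which commits farnesyl units to sterols, fell by 0.51 ± 0.12 (adjusted p = 0.0117) and DHCR7 by 0.40 ± 0.09 (adjusted p = 0.0112). The synthase HMGCS1 did not pass the test (-0.07 ± 0.14, adjusted p = 0.772). ABCG1, a sterol exporter (-0.91 ± 0.12), and STARD4, a sterol carrier (-0.72 ± 0.16), fell. Of the 11 called members, 8 were called whichever of the 6 libraries was left out, and MVK, IDI1 and SQLE were not. Quantile scaling, which gives all libraries the same distribution of values, ended the calls of DHCR7 (-0.30, adjusted p = 0.0568) and SQLE (-0.42, adjusted p = 0.0749). SREBF2 lay in the highest of 5 equal classes of genes by level, where 17.8% of all genes were called lower (median -0.106).

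The fatty acid genes showed the same direction. Of 24 tested, 9 fell and 2 rose (45.8% called), with a median of -0.29. The desaturases fell furthest. FADS1, which makes arachidonic acid from its precursor, had 6659, 5812 and 7266 counts against 19720.3, 13971 and 14634 (-1.28 ± 0.17, 2.43-fold lower, adjusted p = 0.00068), its neighbour FADS2 changed by -0.90 ± 0.12 and SCD, which makes oleic acid, by -0.83 ± 0.19. ACACA, the carboxylase that starts the synthesis, fell by 0.76 ± 0.11. ACSL1 and ACSL3, which activate fatty acids, and the elongases ELOVL1 and ELOVL6 fell too. FASN was uneven, with 9980.3, 8415 and 7726 counts against 7701, 12641 and 15950.3, and did not pass the test (-0.42 ± 0.23, adjusted p = 0.222). DGAT1 and DGAT2, which finish triacylglycerol synthesis, rose by 0.41 ± 0.13 and 0.36 ± 0.10. Without EloB KD 1, 7 members were called in place of 11, all of them lower. Whichever library was left out, the 7 genes FADS1, FADS2, SCD, ACACA, ACSL1, ACSL3 and ELOVL1 were still called. ACLY, also among the 9 that fell, gave -0.12 (adjusted p = 0.272) with quantile scaling. FADS1 lay in the same highest class by level as SREBF2.

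Against the same controls, which the comparisons share, FADS1 changed by -1.27, FADS2 by -0.89, SCD by -0.81 and INSIG1 by -1.63 with EloC KD. The 2 knockdowns could not be told apart for FADS1 (-0.01, adjusted p = 0.969) or INSIG1 (0.38, adjusted p = 0.163). SREBF2 was higher with EloB KD than with EloC KD (0.45, adjusted p = 0.0029).

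The promoters of these genes show which control letters lie near their starts. SREBF2 and INSIG1 are shown for the sterol regulatory element (TCACNCCAC, where N is any base) and the E-box (CACGTG), both known as sites of SREBF proteins, and FADS1 for the cyclic AMP response element (TGACGTCA). The motif is in capitals in each. The stretches are chr22:41832932-41833020 (plus strand), chr7:155297783-155297868 (plus strand) and chr11:61817018-61817105 (minus strand) of GRCh38.p14, and the motifs begin 133, 55 and 62 bases before the start of the gene.

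SREBF2: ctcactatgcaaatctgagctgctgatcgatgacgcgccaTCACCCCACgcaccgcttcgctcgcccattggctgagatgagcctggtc

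INSIG1: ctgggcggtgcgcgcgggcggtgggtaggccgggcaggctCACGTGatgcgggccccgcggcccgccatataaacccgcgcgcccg

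FADS1: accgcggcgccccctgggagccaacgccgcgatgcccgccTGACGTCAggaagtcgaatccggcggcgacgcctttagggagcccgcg

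On either strand, the sterol element was in 1.09% of all promoters held, 1.07% of those of genes called higher and 0.958% of those of genes called lower. It was in 1 of 23 sterol promoters (4.35%) and 0 of 21 fatty acid promoters. The E-box was in 9.86% of all, 5 of 23 sterol promoters (21.7%) and 1 of 21 fatty acid promoters (4.76%). The cyclic AMP element was in 3.13% of all and 2.8% of those of genes called lower. It was in 0 of 23 sterol and 2 of 21 fatty acid promoters (9.52%). The letters CCAAT, known as the NF-Y site, were in 36.8% of all promoters, and 40.5% and 34.3% of those called higher and lower. They were in 17 of the 23 sterol promoters (73.9%) and 9 of 21 fatty acid promoters (42.9%).

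**Figure D3:**
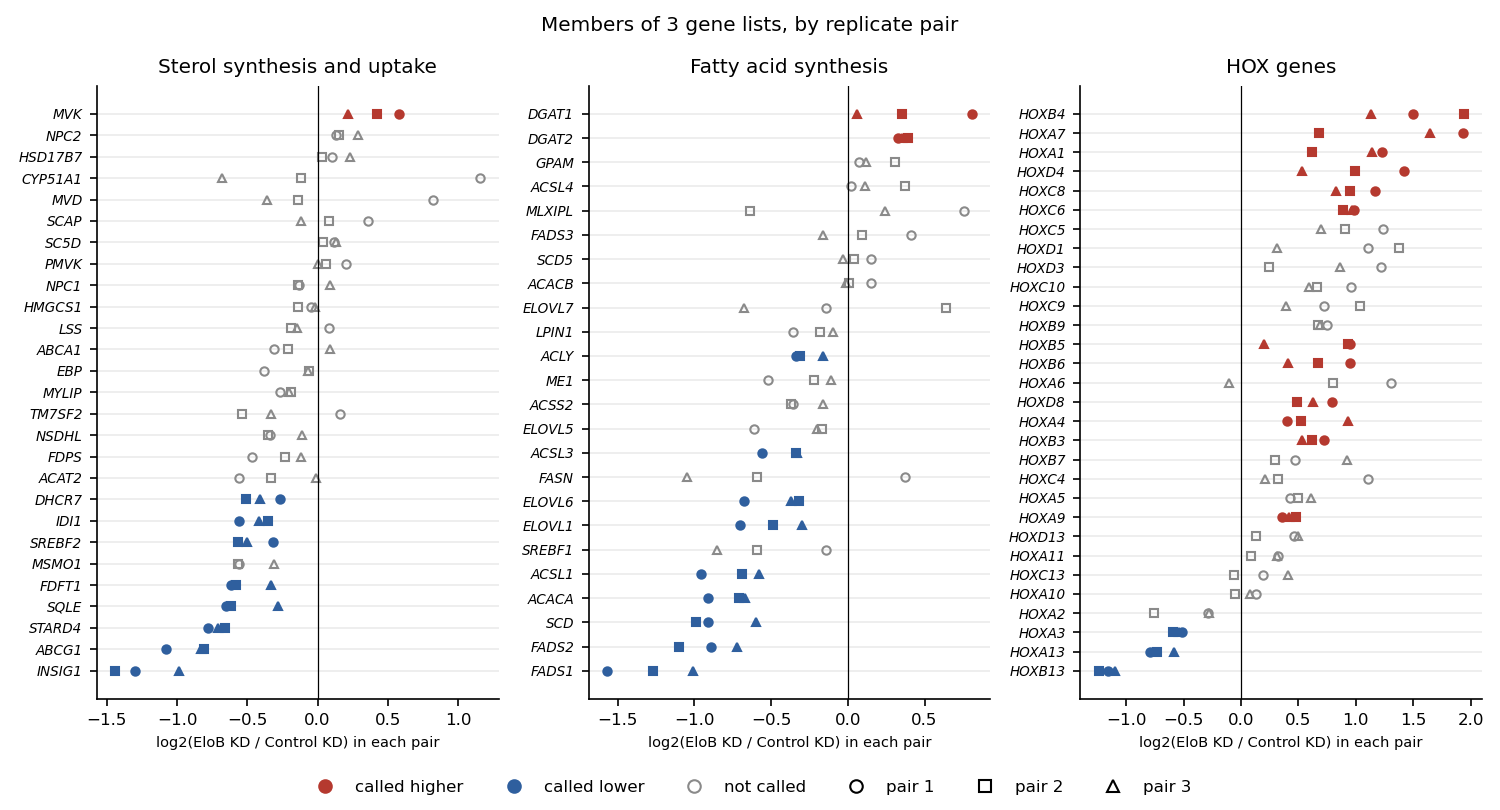
Each row is 1 gene of the sterol (some members not shown), fatty acid or HOX list and each point the log2 ratio of EloB KD to Control KD in 1 replicate pair, blue where the gene was called lower, red where higher and grey where not called. INSIG1 and FADS1 lie left of 0 in all 3 pairs, and the called HOX genes lie right of 0 except HOXB13, HOXA13 and HOXA3.

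HOX genes set the position of cells along the body axis. Of 39 listed, 30 passed the filter on low values, and 12 rose and 3 fell (50% called), with a median of 0.65, and 0.77, 0.57 and 0.52 in the 3 pairs. Every cluster held higher members, 4 of 11 in cluster A, 4 of 7 in B, 2 of 7 in C and 2 of 5 in D. HOXB13, the HOX gene of the prostate lineage and by far the most abundant here, fell from 20942, 16956 and 21752 counts to 9384, 7179 and 10122 (-1.17 ± 0.18, adjusted p = 0.00169). HOXA9, the most abundant of those that rose, went from 1916, 1929 and 1844 to 2462, 2696 and 2461 (0.42 ± 0.09, adjusted p = 0.0078). The others were far lower. HOXC6 had 307, 410.1 and 307 counts against 155, 220.4 and 156 (0.95 ± 0.18), HOXA4 342, 381 and 435 against 258, 266 and 228 (0.62 ± 0.13), and HOXB4 36.3, 36.5 and 19.9 against 12.2, 8.78 and 8.52 (1.52 ± 0.32).

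The HOX counts depended on the libraries and the scaling. Between 7 calls (without EloB KD 1) and 13 (without Control KD 2) were made when 1 library was left out, with 8 without EloB KD 2 and 9 without Control KD 1. HOXA4, HOXA9, HOXB4, HOXC6 and HOXB13 were called in all 6 of these fits. Quantile scaling, which gives all libraries the same distribution of values, called 5 higher and 3 lower and put the median at 0.47. All 12 that rose except HOXA9 had a mean under 913 counts, within the 2 lowest of 5 equal classes of genes by level, whose medians over all genes were 0.271 and 0.072.

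Of 45 genes of TGF-beta, activin and BMP signalling, 12 fell and 5 rose (37.8%, median -0.14). FST, which binds and neutralises activins, fell from 21123, 14674 and 18334 counts to 4199, 3129 and 4534 (-2.19 ± 0.19, 4.57-fold lower, adjusted p = 0.000104). SMAD3, the signal carrier of TGF-beta and activin receptors, fell by 0.78 ± 0.10 (adjusted p = 0.000708). The receptors BMPR1B (-0.94 ± 0.14) and ENG (-0.86 ± 0.16), the activin antagonist FSTL3 (-0.61 ± 0.14) and FSTL1 (-0.55 ± 0.12) fell. INHBA, the subunit of activin A that FST binds, had 3617, 5654 and 3625 counts against 8409, 12039 and 5992 (-1.01 ± 0.27, adjusted p = 0.023), and gave -0.90 (adjusted p = 0.0804) without EloB KD 1. It was also lost without EloB KD 3, Control KD 1 or Control KD 2. TGFBR1, the type I TGF-beta receptor, rose from 2687, 2524 and 2535 to 4094, 3907 and 3382 (0.55 ± 0.09, adjusted p = 0.00243) and differed from its value with EloC KD by 1.75 (adjusted p = 2.4e-06). PMEPA1, a TGF-beta target that restrains the pathway, rose by 1.41 ± 0.30. Of the 17 called members 8 were called whichever library was left out. The smallest number was 10, without Control KD 2, and 11 were called without EloB KD 3 or Control KD 1.

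In the EGF receptor family the ligands split. AREG fell from 1114, 611 and 999.6 counts to 344, 253 and 329 (-1.52 ± 0.21, adjusted p = 0.000868), while HBEGF rose from 497, 538 and 561 to 1933, 1289 and 1355 (1.49 ± 0.16, adjusted p = 0.000241) and EREG from 88.6, 78.2 and 87.7 to 205, 171 and 146 (1.02 ± 0.18, adjusted p = 0.0034). Their receptor EGFR fell from 5255, 5341 and 5935 to 2984, 3381 and 3366 (-0.76 ± 0.12, adjusted p = 0.00207), as did ERRFI1, a feedback inhibitor of the receptor (-0.98 ± 0.12). These 5 of 12 members (41.7%) were called in each of the 6 fits with a library left out, and in each gene the groups were apart. EGFR differed from its level with EloC KD by -1.86 (adjusted p = 5.07e-06). The promoter of AREG is shown because it holds the same cyclic AMP element as that of FADS1, 65 bases before the start (chr4:74445031-74445118, plus strand, GRCh38.p14).

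AREG: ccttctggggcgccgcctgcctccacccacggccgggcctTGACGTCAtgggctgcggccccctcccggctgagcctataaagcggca

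Downstream genes of growth factor signalling did not move in 1 direction. Among 26 immediate early and ERK feedback genes 5 rose and 5 fell (38.5%), with 5 called in all without EloB KD 2 and 6 without EloB KD 3, Control KD 1 or Control KD 2. FOS, an AP-1 subunit, rose from 62.2, 75.5 and 58.4 counts to 270.2, 187 and 249 (1.82 ± 0.19, adjusted p = 0.000231), JUN rose by 0.59 ± 0.13 and EGR2 by 0.72 ± 0.14. SPRED2, an inhibitor of RAS signalling, fell from 5667, 5165 and 5053 to 2404, 2445 and 2756 (-1.06 ± 0.09, adjusted p = 8.76e-05). AP-1 letters (TGANTCA) were in 4.81% of all promoters held, in 5.26% and 5.91% of those of genes called higher and lower, and in 8.08% and 7.31% of those at least 2-fold higher and 2-fold lower.

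Among 32 WNT genes 4 rose and 7 fell (34.4%, median -0.19). The ligand WNT9A (-1.26 ± 0.24), the receptor of R-spondins LGR4 (-1.04 ± 0.11) and the antagonists DKK1 (-0.68 ± 0.16) and SFRP1 (-1.74 ± 0.38) fell. The receptor FZD8 rose from 6069.8, 6253 and 6156 counts to 12419.7, 12935 and 12456 (1.03 ± 0.08, adjusted p = 3.63e-05) and the feedback target AXIN2 from 133, 188 and 134 to 334, 303 and 266 (1.0 ± 0.16, adjusted p = 0.00236). FZD8 replicates differed little within a group beside the difference between groups. Of 15 Notch genes 3 fell (20%, near the 20.5% of all genes), and 7 with the replicate block, which called 36.3% of all genes. The list had the lowest median of the lists with 10 or more members, -0.41. The ligand DLL3 (-0.94 ± 0.17) was called whichever library was left out, while the targets HES1 and HES2 were not.

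Eph receptors guide contact between cells, and 4 of the 11 tested rose and 1 fell. Besides EPHB1, EPHB3 rose from 576, 787 and 795 counts to 2032, 1548 and 1969 (1.37 ± 0.19, adjusted p = 0.001). The ligand EFNB3 fell from 277, 321 and 195 to 76.4, 102 and 103 (-1.47 ± 0.22, adjusted p = 0.00145). In all, 5 of 18 Eph and ephrin genes rose and 2 fell (38.9%), with 3 calls without EloB KD 1 and 4 without EloB KD 2 or Control KD 2. Among 30 semaphorins, plexins and other guidance genes 3 rose and 6 fell (30%). The replicate block, which called 36.3% of all genes, gave 6 higher and 8 lower. PLXNA2 (-0.90 ± 0.12) and SEMA4B (-0.76 ± 0.11) were below and SEMA7A (0.82 ± 0.14) and PLXNA1 (0.94 ± 0.19) above the controls.

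Laminins and collagens build basement membrane and fibres, and integrins are their receptors. Of 9 laminins 3 rose, of 20 collagens 5 rose and 2 fell, and of 16 integrins 1 rose and 3 fell, which is 31.1% of the 45 genes. With the replicate block, which called 36.3% of all genes, 15 rose and 10 fell. LAMB3, a chain of the laminin under epithelia, rose from 3857, 8281 and 6496 counts to 16952, 31128 and 18424 (1.85 ± 0.35, adjusted p = 0.00489). COL4A6, a basement membrane collagen, rose from 2751, 3181 and 2604 to 5179, 6034 and 5382 (0.96 ± 0.10, adjusted p = 0.000207), and COL7A1, the anchoring fibril collagen, rose by 1.02 ± 0.17. The collagen receptor ITGA1 fell from 2298, 1684 and 1526 to 806, 751 and 787 (-1.21 ± 0.15, adjusted p = 0.000486). The collagen median was 0.62, 0.16 and -0.11 in the 3 pairs. HSPG2, the basement membrane proteoglycan perlecan and 1 of the 15 largest decreases, fell from 6628, 10449 and 9543 to 2700.3, 1941 and 1655 (-2.08 ± 0.21, adjusted p = 0.000185). PLAT, the tissue plasminogen activator, fell by 1.42 ± 0.23, and ADAMTS1 by 0.77 ± 0.08.

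Folding of proteins in the endoplasmic reticulum is controlled by the sensor ERN1, which splices the transcript of XBP1, a transcription factor for chaperones and degradation genes. Of 25 such genes 7 fell (28%). HYOU1, a large chaperone of the lumen, fell from 13393, 13851 and 13146 counts to 7791, 7889 and 8574 (-0.74 ± 0.09, adjusted p = 0.000628), and DERL1, a channel component of the degradation pathway, from 9693, 8816 and 9029 to 5544, 5360.2 and 5791 (-0.72 ± 0.08, adjusted p = 0.000237). Both were called whichever library was left out. XBP1 (-0.41 ± 0.11, adjusted p = 0.0258), ERN1, DNAJB9, DNAJC3 and EDEM1 were not, and the list had 2 calls without EloB KD 3, 3 without Control KD 1 or Control KD 2 and 4 without EloB KD 1 or EloB KD 2. HSPA5, the main chaperone of the lumen, had 43176, 39492 and 40725 counts against 41057, 37841 and 36728 (0.09 ± 0.13, adjusted p = 0.66). The median of the list was -0.06.

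XBP1 is shown for the endoplasmic reticulum stress element, CCAAT and CCACG with 9 bases between them, through which it and the sensor ATF6 are known to act. The capitals mark it 52 bases before the start (chr22:28800570-28800661, minus strand, GRCh38.p14).

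XBP1: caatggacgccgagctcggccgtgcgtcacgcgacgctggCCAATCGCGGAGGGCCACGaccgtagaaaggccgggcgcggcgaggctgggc

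This element was in 14 of 11162 promoters (0.125%), of which 6 belong to the 23 promoters of the folding list (26.1%) and 1, that of XBP1, to a gene called in EloB KD.

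Of 76 cytoplasmic ribosomal protein genes 8 fell and no member rose (10.5% called). Of all genes 20.5% were called and 11.2% were called lower. Many ribosomal protein genes have near-identical copies that may share reads. The list's median was -0.17, and -0.23, -0.28 and -0.03 in the 3 pairs. RPS6 fell from 59202, 54669.9 and 49063 counts to 32986, 35889.9 and 41387 (-0.57 ± 0.11, adjusted p = 0.00476), and RPL15 and RPL32 by 0.49 ± 0.09 and 0.46 ± 0.10. These 3 were called whichever library was left out. The count of the list was 3 without EloB KD 2, Control KD 1 or Control KD 2, 5 without EloB KD 1 or EloB KD 3, and 15 without Control KD 3. It was 20 of 76 with the replicate block, which called 36.3% of all genes. Of 34 proteasome subunits 3 fell (8.82%), PSMB5 far more than PSMA3 (-0.54 ± 0.14) and PSMA1 (-0.46 ± 0.10), and the median was -0.05. PSMA3 was not called without Control KD 2 (-0.55, adjusted p = 0.052) or Control KD 3 (-0.52, adjusted p = 0.0546). Of 37 ribosome biogenesis genes 6 fell and 1 rose (18.9%, against 20.5% of all genes). With the replicate block, which called 36.3% of all genes, 13 fell and 1 rose. Leaving out any library but EloB KD 3 gave 1 to 3 calls, and DDX21, a helicase of ribosomal RNA processing, was called in all 6 fits with a library left out (-0.44 ± 0.09, adjusted p = 0.00633). ALDH18A1, the first enzyme of proline synthesis, fell from 12274, 10467 and 10088 to 2384, 2636 and 3515 (-1.96 ± 0.14, adjusted p = 3.55e-05). The list of 30 ATF4 targets it belongs to had 3 lower and 1 higher members (13.3%, against 20.5% of all genes). It had 6 of each with the replicate block, against 36.3% of all genes called.

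**Figure D4:**
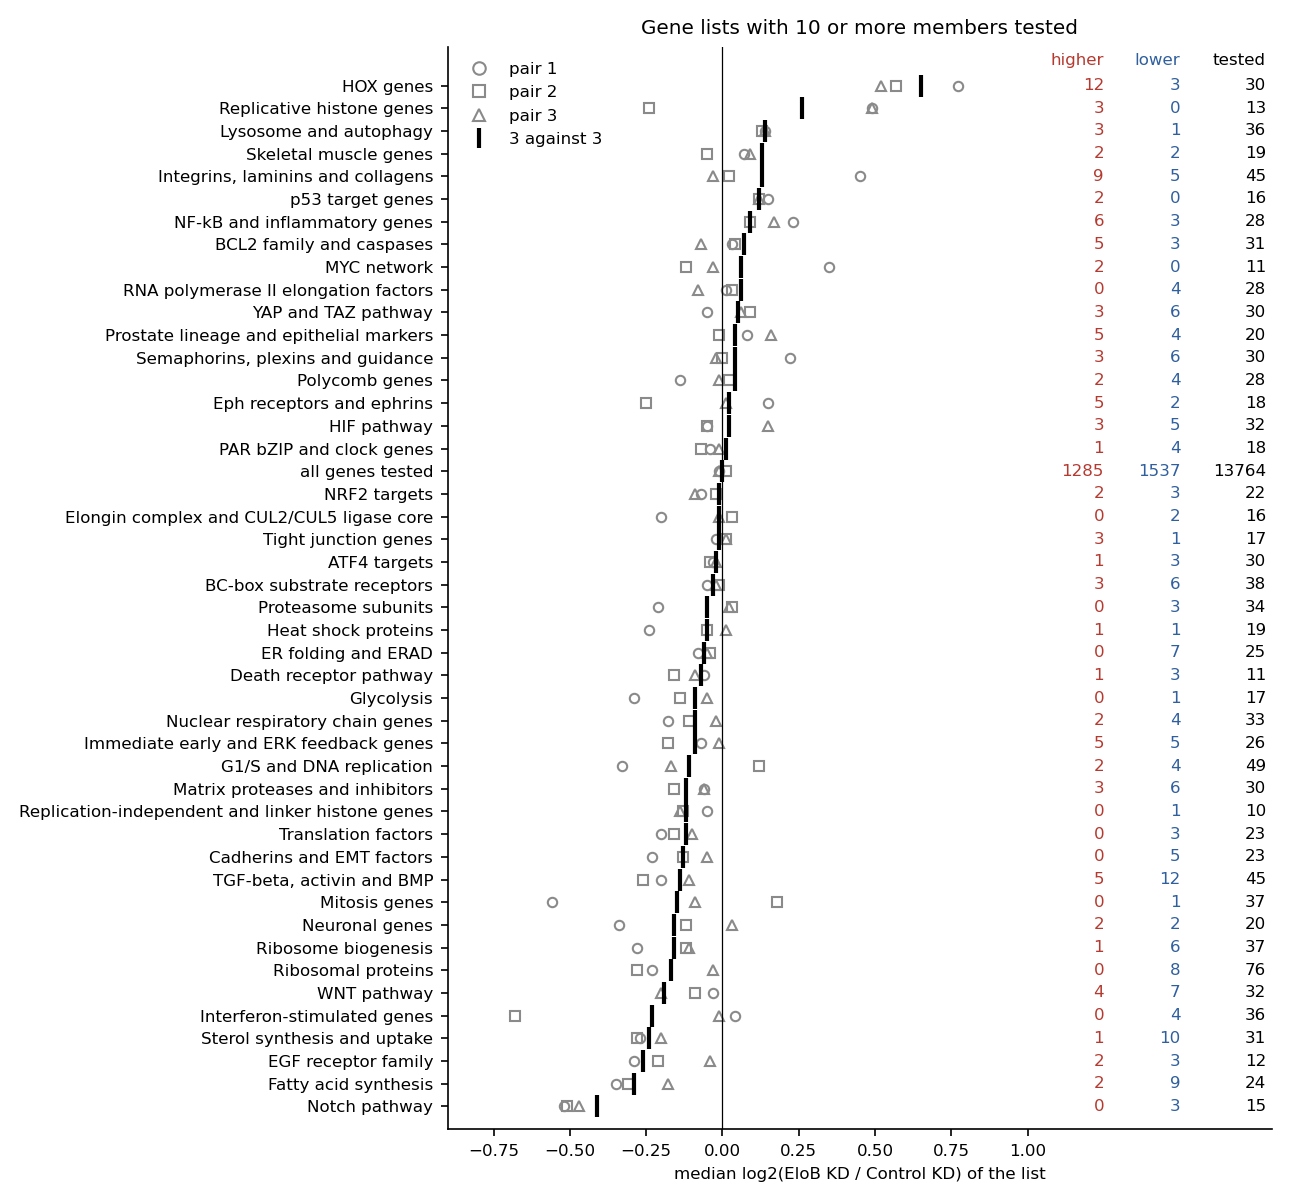
Each row is a gene list with at least 10 members tested, with the median log2 ratio of EloB KD to Control KD in each replicate pair (open symbols) and in the 3-against-3 fit (bar), and the numbers called higher, called lower and tested at the right. HOX genes are at the top with 0.65 and Notch genes at the bottom with -0.41, and the mitosis and interferon lists have 1 pair far from the other two.

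Of 37 mitosis genes only CDC25B, a phosphatase that opens mitosis, was called (6621, 6671 and 7574 counts to 3012, 3484 and 4095, -0.99 ± 0.11, adjusted p = 0.000333). The list's median was -0.56 in pair 1, 0.18 in pair 2 and -0.09 in pair 3. Among 49 G1/S and replication genes CCND1 fell by 0.66 ± 0.08 (adjusted p = 0.000481) and CDK4 by 0.45 ± 0.11, while CDK6, which shares CCND1 as partner with CDK4, rose from 4668, 4193 and 4665 to 10498, 10892 and 9252 (1.18 ± 0.12, adjusted p = 0.000174). In all 2 of the 49 rose and 4 fell (12.2%, against 20.5% of all genes). The replicate block, which called 36.3% of all genes, gave 6 higher and 7 lower.

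In the apoptosis list 5 of 31 genes rose and 3 fell (25.8%), with 5 calls in all without EloB KD 1. Under the replicate block, which called 36.3% of all genes, 8 rose and 8 fell. BCL2L1, the survival factor BCL-XL, rose from 11554, 16021 and 12597 counts to 22711, 22986 and 20498 (0.73 ± 0.12, adjusted p = 0.00228). BIRC3, an inhibitor of apoptosis and NF-kB target, rose from 233, 177 and 142 to 466, 829 and 517 (1.69 ± 0.39, adjusted p = 0.013). BCL2L11, the death-inducing protein BIM, fell from 1300.1, 1269 and 1160.3 to 906, 835 and 875 (-0.51 ± 0.11, adjusted p = 0.00958). CASP10 (-0.76 ± 0.13) and the death receptors TNFRSF10A (-0.61 ± 0.09) and TNFRSF1A (-0.45 ± 0.08) fell. These 6 genes were called whichever library was left out. Of 11 death receptor pathway genes 3 fell and 1 rose (36.4%), with 2 calls without EloB KD 3 or Control KD 2 and 7 with the replicate block. TNFRSF10C, a decoy receptor, rose from 8.48, 6.15 and 9.74 counts to 51.2, 16.3 and 22.7 (1.63 ± 0.45, adjusted p = 0.0267), and was not called without EloB KD 1 (1.17, adjusted p = 0.0896), EloB KD 3, Control KD 1 or Control KD 2. TNFRSF21 fell by 0.48 ± 0.11 (adjusted p = 0.0147), and was not called without EloB KD 2, EloB KD 3 or Control KD 2 (-0.39, adjusted p = 0.0572).

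Of 28 NF-kB and inflammatory genes 6 rose and 3 fell (32.1%). TNFAIP3, a feedback inhibitor of the pathway, had 376, 432 and 397 counts against 179, 204 and 181 (1.09 ± 0.14, adjusted p = 0.000721), and differed from EloC KD by -2.20 (adjusted p = 4.69e-06), and RELB rose by 0.86 ± 0.20. CXCL8 fell from 2167, 3133 and 2258 to 602, 1663 and 1371 (-1.16 ± 0.31, adjusted p = 0.023), and gave -0.99 (adjusted p = 0.0808) without Control KD 2. It was also below EloC KD (-1.79, adjusted p = 0.000909). CXCL3 (1.53 ± 0.27) rose, and its sequence is close to that of CXCL2, so reads may be shared between them. Of 36 interferon-stimulated genes 4 fell (11.1%, against 20.5% of all genes), and 2 without EloB KD 2, EloB KD 3, Control KD 1 or Control KD 2. Under the replicate block, which called 36.3% of all genes, 9 fell. The list's median was 0.04, -0.68 and -0.01 in the 3 pairs. IFITM2 fell from 5531, 4922 and 4634 to 2769, 2747 and 3222 (-0.79 ± 0.11), with the same reservation for its near copies IFITM1 and IFITM3.

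Of 38 BC-box substrate receptors 3 rose and 6 fell (23.7%, near the 20.5% of all genes), with 5 calls without EloB KD 2 and 4 without Control KD 1, among them APPBP2 (-0.71 ± 0.10, adjusted p = 0.00135), KLHDC3 (-0.61 ± 0.13), ASB9 (-0.56 ± 0.12) and ASB13 (0.60 ± 0.12), which were called whichever library was left out. Of 28 elongation factor genes 4 fell (14.3%, against 20.5% of all genes), and 2 without EloB KD 2. With the replicate block, which called 36.3% of all genes, 6 fell and 2 rose. RTF1, a subunit associated with the PAF complex, fell from 6412, 6453 and 6619 counts to 3514, 3668 and 4028 (-0.80 ± 0.08, adjusted p = 0.000207), and MLLT3, a reader protein of the super elongation complex, by 1.02 ± 0.16.

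In the HIF pathway the transcript of HIF1A, the oxygen-controlled subunit whose protein VHL targets, fell from 28683, 19958 and 26265 counts to 15283, 13676 and 15115 (-0.75 ± 0.14, adjusted p = 0.00444). EPAS1 did not pass the test (0.39 ± 0.14, adjusted p = 0.0763), nor did ARNT (0.19 ± 0.12, adjusted p = 0.311), the general partner that ARNT2 resembles. The targets KDM3A (0.47 ± 0.11) and P4HA2 (0.57 ± 0.12) rose, CA12 (-0.56 ± 0.13) fell, and CA9, a hypoxia marker, was not called (-0.46 ± 0.26, adjusted p = 0.233). Together 3 of 32 genes rose and 5 fell (25%, median 0.02). The replicate block, which called 36.3% of all genes, gave 9 higher and 7 lower. The hypoxia core ACGTGC was in 8.56% of all promoters, 7.59% of those of genes called higher and 9.5% of those called lower. Of 14 clock genes 3 fell and 1 rose (28.6%). CLOCK (-0.63 ± 0.10, adjusted p = 0.00166) and its relative NPAS2 (-0.78 ± 0.11, adjusted p = 0.000983) fell. ARNTL, their partner, rose by 0.37 ± 0.10 (adjusted p = 0.0228) and PER1 fell by 0.46 ± 0.14 (adjusted p = 0.0374). Without EloB KD 2 neither was called (0.37, adjusted p = 0.0627, and -0.36, adjusted p = 0.125), nor without EloB KD 3, Control KD 2 or Control KD 3, and PER1 was not called without Control KD 1. The other PAR bZIP genes related to HLF, of which 4 were tested in all, were not called.

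FOXA1, a pioneer factor of luminal epithelium, fell from 9119, 5803 and 8123 counts to 4006, 2867 and 3825 (-1.10 ± 0.23, adjusted p = 0.00773), beside the fall of HOXB13. SCG2, a neuroendocrine granule protein, rose from 22.6, 18.4 and 24.3 to 77.3, 66.3 and 59.7 (1.59 ± 0.23, adjusted p = 0.00109), while the neuroendocrine factor INSM1 stayed at 0.878 counts or less. Of 4 neuroendocrine markers tested 3 were called higher (median 1.15). The other two, SYP (0.70 ± 0.18, adjusted p = 0.0205) and NCAM1 (1.82 ± 0.55, adjusted p = 0.0398), lost the call without EloB KD 3 (0.72, adjusted p = 0.0533, and 1.67, adjusted p = 0.116) or Control KD 2 (0.57, adjusted p = 0.077, and 1.82, adjusted p = 0.0894). SYP also lost it without EloB KD 1, and NCAM1 without EloB KD 2 or Control KD 1. Of the endothelial markers KDR fell (-1.26 ± 0.36, adjusted p = 0.0303; -0.90, adjusted p = 0.0913, without EloB KD 2, and also lost without EloB KD 3, Control KD 1 or Control KD 3) and PECAM1 was not called (0.40, adjusted p = 0.0598).

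The direction of change followed the level of the gene. With genes ranked by their mean over the 6 libraries and divided into 5 equal classes of 2752 or 2753, the median log2 change was 0.271 in the lowest class, then 0.072, 0.007 and -0.038, and -0.106 in the highest. In the lowest class 410 genes were called higher and 97 lower, and in the highest 110 and 490. The 3 replicate pairs gave 0.356, 0.203 and 0.254 in the lowest and -0.185, -0.075 and -0.062 in the highest class. Taking the level from the 3 EloC KD libraries, which enter neither side of the contrast, gave 0.276 and -0.097. Across the 13764 genes, which share the libraries and are not replicates, level and change had a Spearman rho of -0.289 and a Pearson r of -0.292. With EloC KD against the same controls, the medians of the lowest and highest class were 0.057 and -0.032. Quantile scaling, which by construction removes such a trend, put the medians at -0.01 and 0.01, with 225 called higher and 197 lower in the lowest class. The sums of normalised counts were 45.3 M to 47.2 M in EloB KD and 49.1 M to 50.3 M in Control KD, and the part of this in the trend was not tested.

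**Figure D5:**
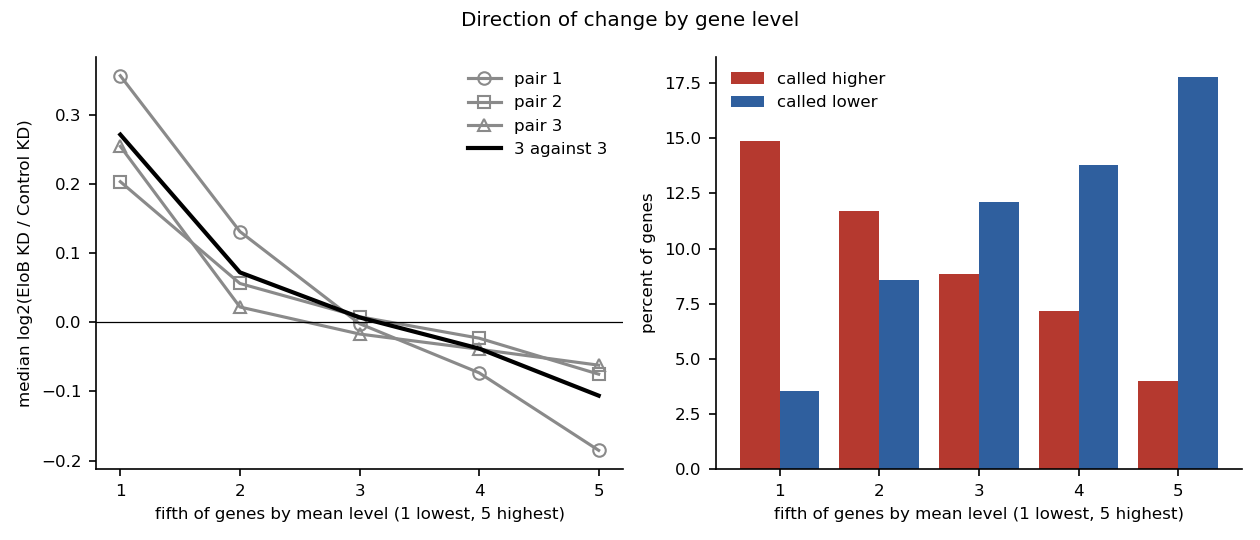
The left panel plots the median log2 ratio of EloB KD to Control KD in 5 equal classes of genes by mean level, for each replicate pair (grey) and for the 3-against-3 fit (black), and the right panel the percent of genes called higher and lower. The medians fall from 0.271 to -0.106 in the fit and in the same order of ends in all 3 pairs, and the share called lower rises from 3.52% to 17.8%.

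Gene length was compared in the same way. Over 13647 genes with a length in RefSeq the Spearman rho with the change was -0.0341, and the median change was 0.013 in the shortest of 5 classes and -0.021 in the longest. The share called rose with length in both directions, from 7.47% higher and 9.41% lower in the shortest of 5 classes to 12% and 13.8% in the longest. Promoters of genes at least 2-fold higher had a median of 60.3% G and C and 16 CpG sites, against 65% and 26 for all promoters held and 64.3% and 23 for genes at least 2-fold lower.

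In the peptide experiment, which shares no library with the knockdowns, 188 of 13105 genes (1.43%) were called between the wild-type and the scrambled peptide. Of the 2660 genes called in EloB KD that were tested there, 40 were called (1.5%), 25 in the same and 15 in the opposite direction, and these are 21.3% of the 188. FST fell with both, by 0.69 on the log2 scale with the peptide (adjusted p = 0.0107), and ITGB4 by 0.91 (adjusted p = 0.0318). ELOB stood at 0.03 (adjusted p = 0.862), HLF at 0.29 (adjusted p = 0.691), MYOD1 at 0.15 (adjusted p = 0.964) and PSMB5 at 0.10 (adjusted p = 0.303). A replicate block raised the number called between the peptides from 188 to 2122.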

How the data were processed

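Libraries from PC3 cells were prepared with a stranded mRNA kit, per the labels' protocols. The build hg38 and the tools featureCounts and DESeq2 are named without versions in the submitters' processing notes. The authors deposited a signal per gene and library, the DESeq2-normalised read count. Dividing by each library's smallest step returned whole reads within 0.05 reads. Whether counting used the strand is not given in the sources used here, so reads of overlapping genes may be shared. Of the authors' deposited result tables, only the adjusted p-value of this comparison was used, beside the calls made here.

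The main test was limma 3.58.1 (R 4.3.3) with an intensity trend, run on log2 values after adding a pseudocount of 1, where a gene's mean over 9 libraries reached 10. The 3 knockdown groups shared 1 fit, tests were 2-sided, and p-values were adjusted by Benjamini-Hochberg over 13764 genes. Errors are standard errors of the log2 fold change, with n = 3 per group. The smallest exact permutation p for 3 against 3 is 0.1. Alternatives were a replicate block, 2 other scalings (TMM, quantile), pseudocounts of 0.5 and 5, no filter or a minimum of 50, count tests on those whole reads with edgeR 4.0.16 and DESeq2 1.42.0, a fit of the 2 groups alone, and each library left out.

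Libraries with the same number deviated together (correlations across genes of 0.236 to 0.566, others -0.439 to 0.0703), which pairs them by the data, not by the labels.

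The genes and the 47 lists were chosen with earlier results of these data known, and the motifs after the files had been read. Genes named are ELOB, ELOC and ELOA, the 15 largest changes each way (adjusted p under 0.05, mean of at least 50 over the 6 libraries, groups apart, 1 direction in all pairs), the 10 most abundant changed 2-fold, the 10 each way called against both other groups by size, and called list members. Other members complete a role. Positions and promoters (250 bases before to 50 after the start) are from RefSeq, GRCh38.p14. Lists and promoters were described by counts and medians, with no test. Some genes counted within the lists are not reported here by name.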

Additional observations from a re-analysis of the deposited data

How the results depend on the processing

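The count of 2822 genes stayed within 1.5 times under TMM scaling (2861), quantile scaling (2707), edgeR (2847), DESeq2 (3456), other pseudocounts and filters, and the fit of the 2 groups alone (2418). It rose to 4996 with the replicate block, and was 1915 to 2373 with 1 library left out. EloB KD against EloC KD gave 6343 genes, 8171 with the replicate block and 5170 to 5626 with 1 library left out. The WT peptide gave 188 genes, and 2122 with the replicate block. The block ended no call made in EloB KD against Control KD. ELOB changed by -2.82 in the main fit, -2.82 with the replicate block and -3.08 to -2.62 with 1 library left out. No called gene among those named by size or list changed direction. Of 316 such genes, 145 missed the threshold under at least 1 alternative, 67 of them only when a library was left out. The parts of depth and of library number in the precision were not separated. The classes of genes by level were added after seeing the data: with 1 library left out the median of the lowest class was 0.22 to 0.31 and that of the highest -0.12 to -0.07, and quantile scaling gave -0.01 and 0.01.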

Other observations

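Called genes were spread over all chromosomes. On chromosome 19, 6.2% of 1000 genes were called lower and 8.3% higher, with a median log2 change of 0.097, the highest of the 23 chromosomes with genes tested (the 22 autosomes and X). On chromosome 17, 13.9% of 798 genes were called lower and 7.77% higher, and on chromosome 13 5.06% of 237 genes were called higher and 7.17% lower. Chromosome 14 had the highest share called higher, 63 of 454 genes (13.9%).

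The number of exons showed no relation with the change, with a Spearman rho of -0.00171 over 13408 genes. Of 36 lysosome and autophagy genes 3 rose and 1 fell (11.1%, against 20.5% of all genes), with medians of 0.14, 0.13 and 0.14 in the 3 pairs. ATP6AP1, an accessory subunit of the proton pump, rose from 5523, 5832 and 5543 counts to 9702, 8836 and 7912 (0.64 ± 0.11, limma adjusted p = 0.00273). The list had 1 call without EloB KD 1, Control KD 1 or Control KD 2, and 8 with quantile scaling. It had 12 with the replicate block, which called 36.3% of all genes. MXD1, a dimer partner of MAX that represses MYC targets, rose from 855, 628 and 637 counts to 2662, 1945 and 1676 (1.55 ± 0.18, limma adjusted p = 0.000309).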
